A study of Mus musculus with 6 samples.

Results

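Genes that have been reported to differ between C57BL/6J and C57BL/6N mice were examined in liver, 7 in all: Nnt, Wdfy1, Ide, Entpd4, Cyfip2, Crb1 and Nlrp12. They were taken as all probe sets whose platform annotation names one of these 7 genes alone. This gave 18 of the 38195 probe sets in the deposited table, from 6 genes of 18029, since no probe set of Entpd4 was analysed here. Nnt and Wdfy1 were selected on their difference in intensity between these same HKO and control livers, so the values of all 18 probe sets are given as a description, without a test.

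Livers came from mice lacking RECS1, now called Tmbim1, in hepatocytes (HKO, n = 3) and from mice with floxed RECS1 alleles (control, n = 3). All were C57BL/6, had eaten a high-fat diet for 8 weeks from an age of 8 weeks, and were 16 weeks old. One liver sample went on each Affymetrix array, and the deposited values are log2 intensities made with RMA. The labels give the strain as C57BL/6 with no substrain letter. The sources used here do not give the Cre driver, the sex, the parentage of the animals or the substrain of each group, and the part of substrain in any value below was not tested.

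C57BL/6J and C57BL/6N are sister lines of one inbred mouse strain that have been bred apart for decades and have collected different spontaneous mutations. Nnt encodes nicotinamide nucleotide transhydrogenase, an inner mitochondrial membrane enzyme that uses the proton gradient to make NADPH from NADH. C57BL/6J carries a deletion of several exons of Nnt and makes no functional enzyme, whereas C57BL/6N carries the intact gene. Crb1 has a frameshift in C57BL/6N that disturbs the retina, Cyfip2 has a missense change in C57BL/6N, and Nlrp12 has a missense change in C57BL/6J. Ide has been reported to vary in copy number within C57BL/6J stocks.

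The arrays were alike in their overall distribution, with medians between 3.92 and 3.95. Across all probe sets, arrays of the same genotype had a Pearson r of 0.9947 to 0.9959, and arrays of different genotypes one of 0.9913 to 0.9939. The targeted gene Tmbim1 had log2 values of 7.19, 7.14 and 7.06 in HKO livers, against 7.62, 7.58 and 7.74 in control livers. It fell by 0.52 ± 0.08 (log2 fold change ± SE, limma, Benjamini-Hochberg adjusted p = 0.026), and without any 1 array the adjusted p lay between 0.065 and 0.0967. The exons that its only probe set covers are not stated in the labels or the annotation used here, which limits this fall as a check of the deletion. Hepatocyte markers averaged between 12.05 and 12.27 in HKO livers and between 12.19 and 12.24 in control livers. None of 81 markers of 10 cell types passed the test by limma, with 4 at an unadjusted p under 0.05, a bound that 12.99% of all genes met. The medians of the 10 marker lists lay between -0.12 and 0.13. Adipocyte markers averaged 5.57 to 5.89 in HKO and 5.38 to 5.51 in control livers, without overlap. The median log2 difference of these 6 markers was -0.005, with 1 at an unadjusted p under 0.05 by limma. Their average therefore does not show a rise of the list as a whole. Cholangiocyte markers, all dim, averaged 3.02 to 3.11 in HKO and 3.22 to 3.28 in control livers, also without overlap. The averages of the other lists overlapped. In whole tissue, fewer cells of a type and less RNA per cell cannot be told apart.

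Of the 18 probe sets, 9 had HKO and control values that did not overlap, 5 of them higher and 4 lower in HKO livers, whereas 16.9% of all probe sets did not overlap, 7.8% higher and 9.15% lower in HKO livers. Of the 18, 4, made up of 2 of Nnt and 2 of Wdfy1, were among the probe sets past an adjusted p of 0.05 in the fit over all probe sets, which called 0.702% of them, 0.367% higher and 0.335% lower in HKO livers. Nothing is read from these counts, because the same contrast served to choose the genes. The 6 probe sets with a mean below the median probe set (3.94) were 3 of Cyfip2 and 1 each of Wdfy1, Ide and Crb1. RMA compresses differences at such dim levels.

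**Figure D1:**
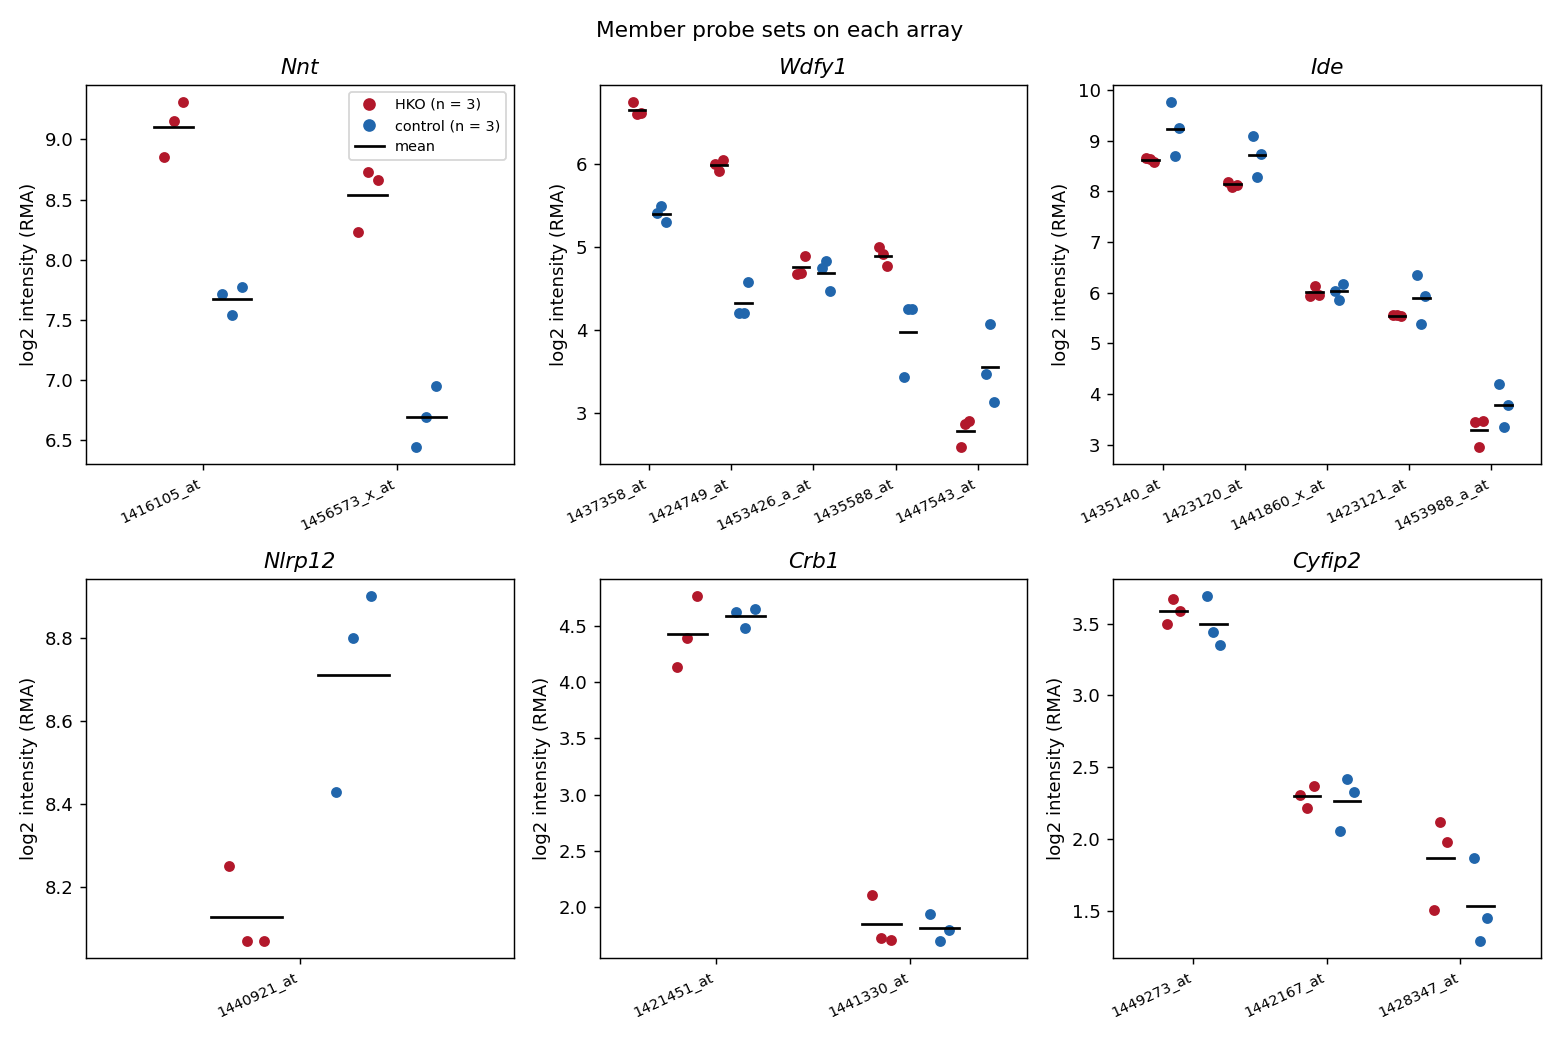
Log2 intensity (RMA) of each of the 18 probe sets on each array, with HKO livers in red, control livers in blue and the group mean as a black bar (n = 3 each), in 1 panel per gene. Both probe sets of Nnt lie above control values in all 3 HKO livers, and the control livers spread more widely than the HKO livers in Ide probe set 1435140_at.

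Nnt was higher in every HKO liver by both of its probe sets. The brighter, 1416105_at, had log2 values of 8.85, 9.15 and 9.31 in HKO livers, against 7.71, 7.54 and 7.77 in control livers. The groups were separated by a gap of 1.07 between the lowest HKO and the highest control value. Means were 9.10 ± 0.23 in HKO and 7.67 ± 0.12 in control livers (SD, n = 3 each), a log2 difference of 1.43 ± 0.13 (SE), or 2.69-fold.

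The other Nnt probe set, 1456573_x_at, had 8.23, 8.73 and 8.66 in HKO livers, against 6.44, 6.69 and 6.95 in control livers. Its suffix marks a probe set in which some probes may also bind other transcripts. Its log2 difference was 1.85 ± 0.16 (SE), or 3.59-fold, with a gap of 1.27 between the groups. HKO 1 was the lowest of the HKO livers in both Nnt probe sets, yet stood above every control liver. Nnt transcript was thus measured in the control livers as well, with both group means above the median probe set. The exons these probes cover are not stated in the labels or the annotation used here, and these values do not say whether a transcript holds the exons that C57BL/6J lacks.

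Wdfy1 encodes a protein with WD repeats and a FYVE domain, which binds a phosphoinositide of early endosomes, and it has been described as helping the adaptor TRIF join Toll-like receptors TLR3 and TLR4. Its 5 probe sets did not agree. Its brightest, 1437358_at, had log2 values of 6.75, 6.61 and 6.62 in HKO livers, against 5.41, 5.50 and 5.31 in control livers. The difference was 1.25 ± 0.09 (SE), or 2.39-fold, and both groups were tight, with SDs of 0.08 in HKO and 0.10 in control livers.

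Wdfy1 probe set 1424749_at had 6.00, 5.92 and 6.05 in HKO livers, against 4.21, 4.21 and 4.58 in control livers. The groups did not overlap, and the log2 difference of 1.66 ± 0.11 (SE), or 3.16-fold, was larger than that of the brightest probe set. Probe set 1435588_at had 5.0, 4.92 and 4.77 in HKO livers, against 3.44, 4.25 and 4.25 in control livers. Control 1 stood 0.81 below both other control livers here, and the log2 difference was 0.92 ± 0.20.

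The remaining pair of Wdfy1 probe sets did not share this direction. Probe set 1453426_a_at had 4.68, 4.69 and 4.90 in HKO livers, against 4.75, 4.84 and 4.47 in control livers, overlapping groups with a log2 difference of 0.07 ± 0.11 (SE). The dimmest, 1447543_at, was lower in HKO livers, at 2.59, 2.87 and 2.91, against 3.47, 4.07 and 3.14 in control livers, a log2 difference of -0.77 ± 0.21. Its HKO values all lie below the median probe set.

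**Figure D2:**
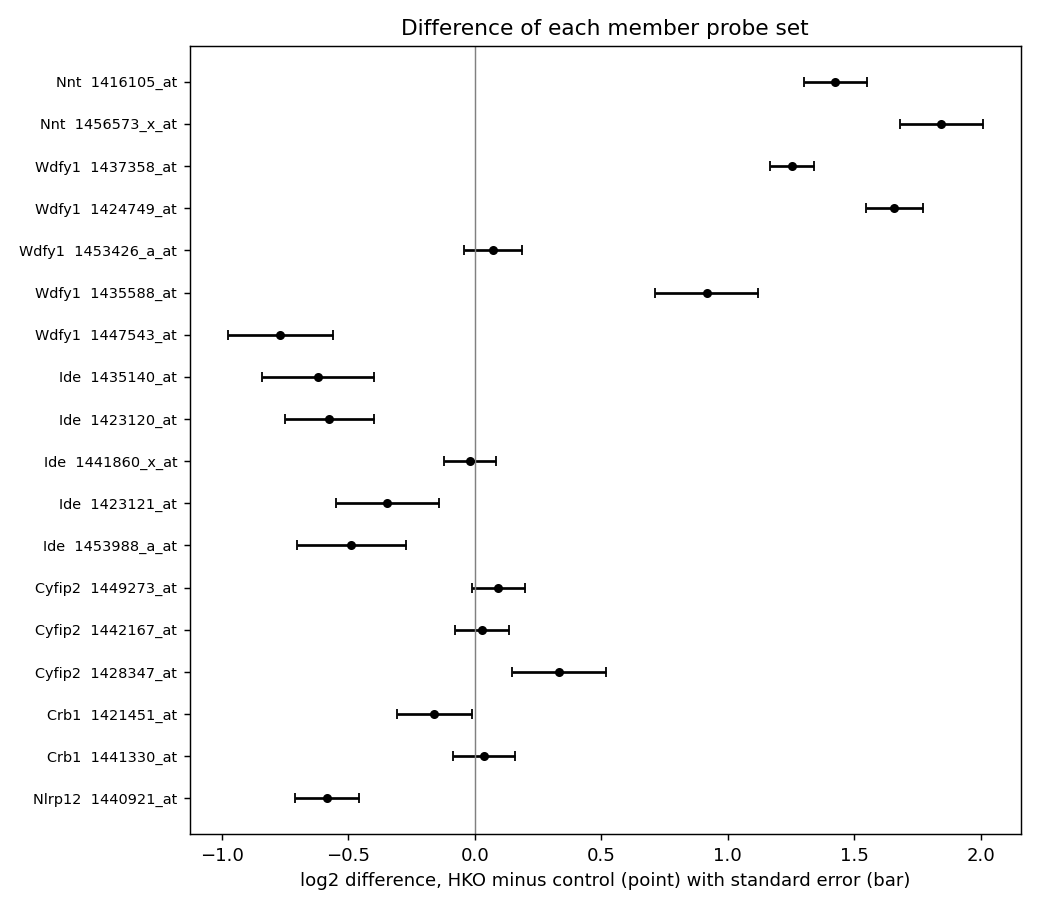
Log2 difference, HKO minus control, of each of the 18 probe sets, with its standard error from the fit over all probe sets as a bar. Nnt stands at 1.43 and 1.85, Wdfy1 spreads between -0.77 and 1.66, and Cyfip2 and Crb1 lie between -0.16 and 0.33.

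Ide encodes insulin-degrading enzyme, a zinc metallopeptidase that cleaves insulin, glucagon and amyloid beta. All 5 of its probe sets had a lower mean in HKO livers, but the control livers differed from each other by more than the genotypes did. Its brightest probe set, 1435140_at, had log2 values of 8.65, 8.63 and 8.58 in HKO livers, against 9.76, 8.70 and 9.26 in control livers. Control 2 stood 0.08 above the HKO mean, while control 3 stood 0.64 and control 1 stood 1.14 above it, which is 1.06, 1.56 and 2.21 times the HKO mean on the linear scale.

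The range of 1.06 over the control livers ranked 132 among the control ranges of 38195 probe sets, counted from the widest. The HKO range of the same probe set was 0.071. The control ranges of Ide probe sets 1423120_at, 1423121_at and 1453988_a_at ranked 379, 173 and 308. By contrast, that of Ide probe set 1441860_x_at ranked 9839. Wide control ranges were not particular to Ide, since Wdfy1 had 0.93 in 1447543_at and 0.81 in 1435588_at. Ide probe set 1423120_at had 8.19, 8.08 and 8.13 in HKO livers, against 9.10, 8.29 and 8.74 in control livers. Control 1, 2 and 3 stood at 1.95, 1.11 and 1.52 times the HKO mean here. The copy number of Ide in these animals was not tested.

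Probe set 1423121_at of Ide had 5.55, 5.55 and 5.54 in HKO livers, against 6.35, 5.38 and 5.94 in control livers. Control 2 lay below the HKO livers here, so the groups overlapped. Probe set 1453988_a_at had 3.44, 2.95 and 3.47 in HKO livers, against 4.20, 3.35 and 3.79 in control livers. In 4 of the 5 Ide probe sets control 1 was the highest, control 3 the next and control 2 the lowest of the control livers.

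The exception was 1441860_x_at, with 5.93, 6.13 and 5.96 in HKO livers, against 6.04, 5.86 and 6.17 in control livers, and a log2 difference of -0.02 ± 0.10 (SE). The log2 differences of the other 4 Ide probe sets lay between -0.62 and -0.35, with SEs of 0.18 to 0.22. For 1435140_at the difference was -0.62 ± 0.22, and leaving out 1 array moved it to between -0.89, without control 2, and -0.36, without control 1. The mean difference of Ide therefore rests on which control livers are counted.

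**Figure D3:**
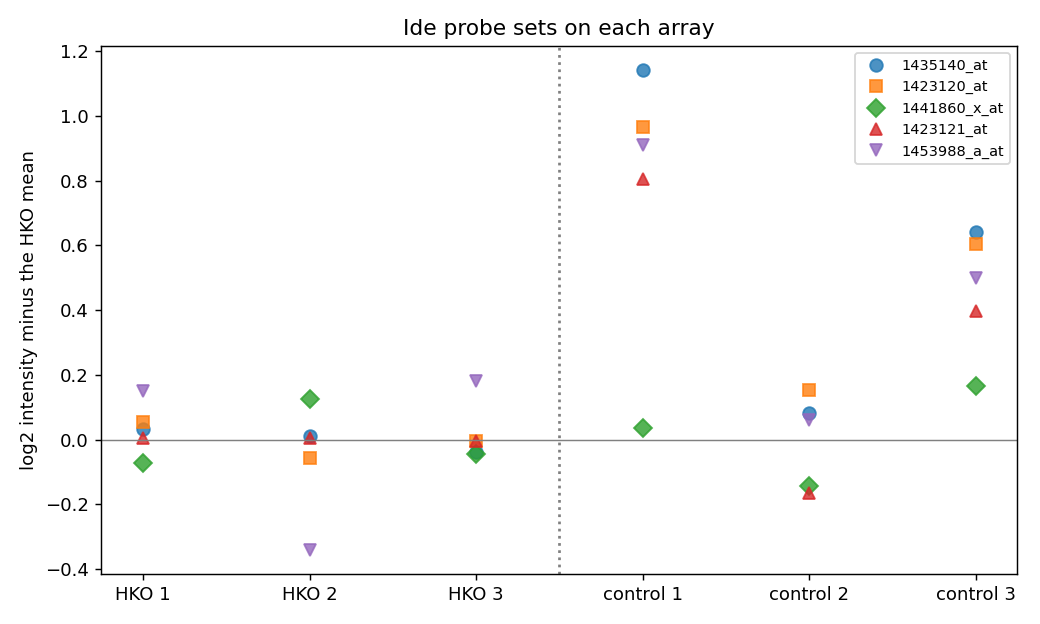
Log2 intensity of the 5 Ide probe sets on each array (x axis), minus the mean of the 3 HKO livers of that probe set (y axis). Control 1 stands highest and control 3 next in 4 of the 5 probe sets, while control 2 lies within 0.17 of the HKO mean in all 5.

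On chromosome 19, 5 genes beside Ide were read for the same order of livers, a choice made after the Ide values were seen, and they did not agree. Fgfbp3, a secreted protein that binds fibroblast growth factors, has 4 measured genes between it and Ide. It was dim, with 2.00, 1.88 and 2.05 in HKO livers, against 2.31, 1.76 and 2.39 in control livers. Here too control 2 was the lowest and control 1 and control 3 stood above all HKO livers. The highest was control 3, however, and not control 1 as in most Ide probe sets.

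The transcript 4931408D14Rik, next to Ide in the gene order, had 5.92, 5.84 and 6.57 in HKO livers, against 6.24, 5.05 and 5.74 in control livers. It had the order of most Ide probe sets within the control livers, with control 1 the highest and control 2 the lowest. Kif11, a mitotic kinesin on the other side of Ide, had 3.62, 3.78 and 3.72 in HKO livers, against 3.78, 3.73 and 3.45 in control livers, with control 3 the lowest. Btaf1, a regulator of the TATA-binding protein that follows Fgfbp3 in the gene order, had 7.33, 7.12 and 7.10 in HKO livers, against 7.53, 7.37 and 7.35 in control livers. Control 2 was not the lowest here, and all 3 control livers stood above all HKO livers. Cpeb3, an RNA-binding translational regulator, had 6.14, 6.29 and 6.32 in HKO livers, against 5.90, 5.76 and 5.83 in control livers. Control 2 was again the lowest, but all control livers stood below all HKO livers.

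None of the 20 nearest measured genes around Ide passed the test by limma, which called 1.01% of all genes. Of the 20, 4 had an unadjusted p under 0.05, a bound that 12.99% of all genes met. Their log2 differences lay between -0.62 and 0.43. The gene at -0.62, as low as the brightest Ide probe set, was not among those read for the order of livers. The lowest p was that of Cpeb3, with a log2 difference of 0.42 ± 0.08 (adjusted p = 0.0621). Cpeb3 passed when dim genes were left out (0.0363) and with trend and robust options in limma (0.0382), but had an adjusted p of 0.322 with its probe sets reduced to their median and of 0.111 to 0.218 without 1 array.

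Nlrp12 encodes an NLR protein of myeloid cells that restrains inflammatory signalling. Its only probe set, 1440921_at, had 8.25, 8.07 and 8.07 in HKO livers, against 8.43, 8.80 and 8.90 in control livers. All 3 HKO livers lay below all 3 control livers, by a gap of 0.19, with a log2 difference of -0.58 ± 0.13 (SE), or 0.668 times the control level. With 1 probe set, no other measurement of the gene was at hand. Its mean lay at percentile 94.3 of all probe sets. This was above the median level of macrophage and Kupffer cell markers (7.27) and of neutrophil markers (4.26). Whether the probe set reports Nlrp12 alone was not tested. The mean over 8 neutrophil markers lay between 4.04 and 4.35 in HKO livers and between 4.19 and 4.86 in control livers, and none of the 8 passed the test by limma, also at an unadjusted p under 0.05 (0 of 8). The mean over 10 macrophage and Kupffer cell markers lay between 7.05 and 7.47 in HKO livers and between 6.81 and 7.51 in control livers. The part of myeloid cells in the Nlrp12 value was not tested.

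Crb1, an apical polarity protein best known from photoreceptors, and Cyfip2, a subunit of the WAVE actin-regulating complex, showed no separation of the genotypes in any of their 5 probe sets. Crb1 probe set 1421451_at had 4.13, 4.39 and 4.76 in HKO livers, against 4.62, 4.48 and 4.65 in control livers, so that the HKO livers spanned the control values. Its log2 difference was -0.16 ± 0.15 (SE), and that of the dim 1441330_at was 0.04 ± 0.12.

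Cyfip2 was dim in all 3 of its probe sets. The brightest, 1449273_at, had 3.50, 3.67 and 3.59 in HKO livers, against 3.69, 3.44 and 3.35 in control livers, with a log2 difference of 0.09 ± 0.10 (SE). The other Cyfip2 probe sets stood at 0.03 ± 0.11 and 0.33 ± 0.19. The changes known in the coding sequence of Crb1, Cyfip2 and Nlrp12 cannot be read from probe set intensities.

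A pair of genes reported to differ in other vendor lines was looked at beside these genes. Mmrn1, a platelet and endothelial matrix protein, had 2.35, 2.61 and 2.17 in HKO livers, against 2.40, 2.32 and 2.16 in control livers. These values are dim in both groups and overlap. Dock2, a Rac activator of blood cells that carries a duplication in a line of one vendor, had 4.36, 4.51 and 4.42 in HKO livers, against 4.71, 4.09 and 4.25 in control livers. Neither Mmrn1 nor Dock2 passed the test by limma, also at an unadjusted p under 0.05 (adjusted p = 0.827 for Mmrn1 and 0.861 for Dock2).

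Wdfy1 and the targeted gene Tmbim1 share chromosome 1, with 55 measured genes between them in the gene order of assembly GRCm38.p6. The interval is shown because these genes are physically linked to the targeted one. Of the 55 genes, 1 rose and 1 fell (limma, adjusted p under 0.05), or 3.64%, against 1.01% of all 18029 genes (0.56% that rose and 0.449% that fell). Their median log2 difference was -0.06, against 0.00 for all genes. Of their values 15 were positive (27.3%, against 48.8% of all genes) and 40 negative. The 20 measured genes nearest to Tmbim1, which include genes of this interval, had 5 positive and 15 negative values and a median of -0.07. The cause of this tilt was not tested.

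The gene that rose, Mogat1, a monoacylglycerol acyltransferase that feeds triglyceride synthesis, has 5 measured genes between it and Wdfy1. It had 6.98, 6.95 and 7.55 in HKO livers, against 5.41, 4.55 and 4.51 in control livers, a log2 difference of 2.34 ± 0.26 (SE, adjusted p = 0.00554). The gene that fell, Ankzf1, which acts in the quality control of stalled ribosomes, had 6.02, 6.16 and 6.05 in HKO livers, against 6.64, 6.50 and 6.49 in control livers. Its log2 difference was -0.47 ± 0.08 (adjusted p = 0.042) by its brightest probe set and -0.15 (0.416) when its probe sets were reduced to their median, and it passed in none of the 6 fits without 1 array. The other 53 genes lay between -0.25 and 0.18.

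**Figure D4:**
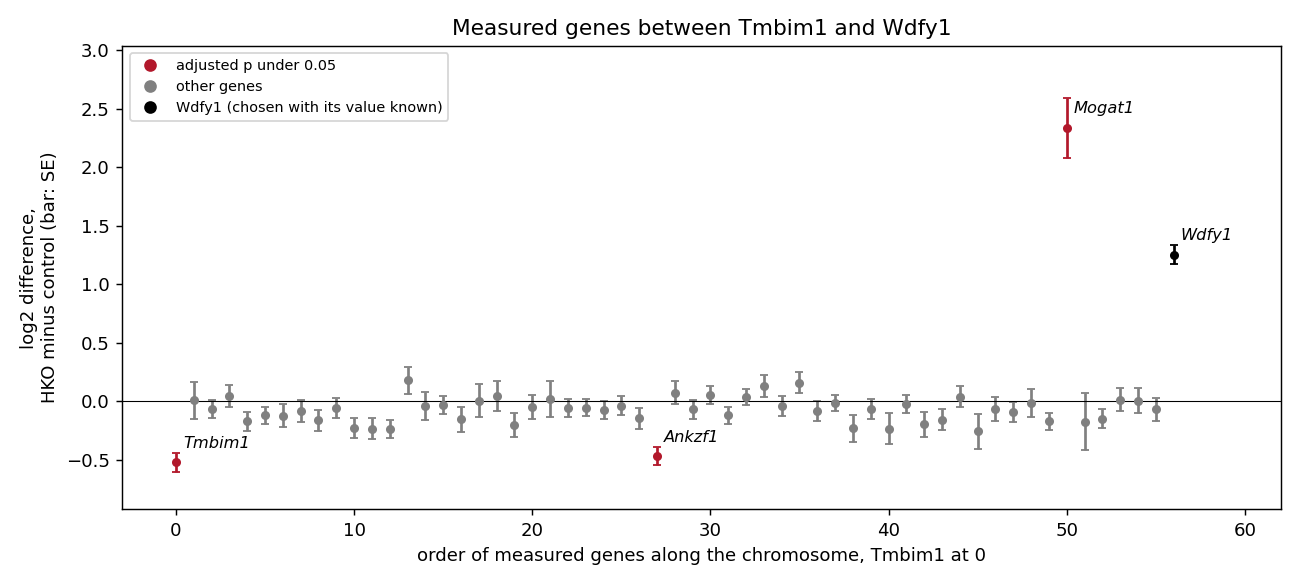
Log2 difference, HKO minus control (y axis, bar: SE), of Tmbim1, the 55 measured genes that follow it and Wdfy1, in their order along the chromosome (x axis). Mogat1 at 2.34 and Ankzf1 at -0.47 passed the test, and the other genes between Tmbim1 and Wdfy1 lie between -0.25 and 0.18.

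The nearest genes of the other members were read in the same way. None of the 20 measured genes nearest to Nnt on chromosome 13 passed the test by limma, with 2 at an unadjusted p under 0.05 and differences between -0.25 and 0.14. Paip1, a translation factor partner and the gene next to Nnt, had 7.20, 7.12 and 7.16 in HKO livers, against 7.30, 7.32 and 7.36 in control livers (log2 difference -0.17 ± 0.07, adjusted p = 0.351). The Paip1 groups did not overlap, with the HKO livers lower, as held for 9.15% of all probe sets. Since limma called 1.01% of all genes, the lack of a call among 20 neighbours says little. Nothing about the region of Nnt is read from it. None passed by limma among 20 neighbours each of Tmbim1, Cyfip2 and Crb1 or among 12 of Nlrp12, with 3, 0, 2 and 1 at an unadjusted p under 0.05, a bound that 12.99% of all genes met. The neighbours with the lowest p were Tns1 near Tmbim1, an adaptor of focal adhesions, at -0.54 ± 0.12 (adjusted p = 0.105), and the splicing factor Prpf31 near Nlrp12, at -0.39 ± 0.08 (0.0835).

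Genes that work beside each member were counted from lists, each gene by its brightest probe set, against 1.01% called among all genes (0.56% higher and 0.449% lower in HKO livers) and an all-gene median of 0.00. Of 29 measured genes of NADPH supply and mitochondrial thiol defence, the setting in which Nnt acts, 1 rose, or 3.45% against 0.56% of all genes, and none fell. This was Nmnat3, an enzyme of NAD synthesis, with 5.06, 5.05 and 5.02 in HKO livers, against 4.68, 4.59 and 4.61 in control livers (log2 difference 0.42 ± 0.07, limma, adjusted p = 0.037). With its probe sets reduced to their median, Nmnat3 stood at 0.24 (0.224), and it passed in none of the 6 fits that left out an array. The median of all 29 was 0.10, with 24 of 29 values positive (82.8%, against 48.8% of all genes).

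Of 19 measured genes of TLR3 and TLR4 adaptor signalling, in which Wdfy1 has been placed, Myd88, the adaptor of most Toll-like receptors, rose (5.26%, against 0.56% of all genes) and the other 18 did not pass. Myd88 had 8.37, 8.40 and 8.35 in HKO livers, against 6.65, 6.66 and 6.72 in control livers (log2 difference 1.70 ± 0.07, limma, adjusted p = 1.17e-05). The 18 others lay between -0.31 and 0.27 and the list median was 0.02.

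Of 20 measured genes of insulin handling and related peptidases, the setting of Ide, 1 rose, or 5.0% against 0.56% of all genes, and none fell. This was Mme, the membrane peptidase neprilysin, with 7.63, 7.30 and 7.69 in HKO livers, against 6.15, 6.66 and 6.65 in control livers (log2 difference 1.05 ± 0.16, limma, adjusted p = 0.026). Mme lost its call in 4 of the 6 fits that left out an array. The median of all 20 was -0.02.

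Of 17 measured nucleotidases and nucleoside phosphatases, the enzymes related to Entpd4, 1 rose, or 5.88% against 0.56% of all genes, and none fell. This was Nt5e, which turns extracellular AMP into adenosine, with 6.31, 6.14 and 6.94 in HKO livers, against 4.81, 5.36 and 5.25 in control livers (log2 difference 1.32 ± 0.22, limma, adjusted p = 0.037). The probe sets of Nt5e disagreed, since their median gave 0.18 (0.36). It lost its call in 5 of the 6 fits that left out an array.

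Of 21 measured NLR family and inflammasome genes beside Nlrp12, 1 rose and 1 fell, 9.52% in all, against 1.01% of all genes. With so few calls in each list, nothing particular to any list is read from these shares. Il1b, the inflammasome cytokine, rose by 2.19 ± 0.11 (limma, adjusted p = 3.69e-05). Gsdmd, the pore protein that inflammatory caspases cleave, had 6.34, 6.54 and 6.29 in HKO livers, against 7.10, 6.87 and 6.88 in control livers, and fell by 0.56 ± 0.10 (adjusted p = 0.0481). Gsdmd lost its call in 5 of the 6 fits that left out an array. The other 19 lay between -0.27 and 0.37, with a list median of -0.03.

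None of 20 measured genes of the WAVE complex and Rac signalling, to which Cyfip2 belongs, passed the test by limma. Of the 20, 1 had an unadjusted p under 0.05, their differences lay between -0.21 and 0.29, and the lowest p was that of Abi3, a WAVE subunit of blood cells, at 0.29 ± 0.11 (adjusted p = 0.342). None of 18 measured genes of Crumbs and apical polarity passed either, with 5 at an unadjusted p under 0.05 and differences between -0.31 and 0.31. Over all genes, 12.99% met that unadjusted bound. The polarity kinase Prkcz stood at -0.31 ± 0.08 (adjusted p = 0.156), and at 0.048 with its probe sets reduced to their median, and the small GTPase Cdc42 at 0.31 ± 0.08 (0.166).

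Genes with the profile most like that of Nnt or Wdfy1 were ranked by Pearson r over the 6 arrays among 9013 genes brighter than the median gene. The 6 points fall into 2 genotypes, so r mostly follows the difference between them. Brightness was the mean over all 6 arrays, so a gene could pass through its HKO values alone. Cxcl10 (control mean 4.461), Il1b (4.658) and, narrowly, Dcaf12l1 (4.6926) did so, as the median gene stood at 4.6935. The filter thus favours genes that are high in HKO livers, and nothing is read from which genes rank highest. For Nnt, the 5 highest were Cxcl10, Acaa1b, Cxcl9, Cpeb3 and Dcaf12l1, with r between 0.987 and 0.997, and 2.60% of genes had an r above 0.9. Of these, Cxcl10 and Cxcl9 are chemokines that interferon induces, and they differed by 2.55 and 1.90 log2 units, whereas Acaa1b, a peroxisomal thiolase, differed by 0.28. The lowest were U2af1l4, Tmem25 and Plec, with r between -0.995 and -0.994.

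For Wdfy1, the 5 highest were Il1b, Rmdn2, Nfkbia, Rela and Ccl5, with r between 0.993 and 0.997, and 2.73% of genes had an r above 0.9. Among these are the cytokine Il1b, the NF-kB inhibitor Nfkbia, the NF-kB subunit Rela and the chemokine Ccl5, with differences of 2.19, 2.38, 1.91 and 2.69 log2 units. The lowest were Snrnp200, Khnyn and Mfhas1, with r between -0.998 and -0.992. Nnt and Wdfy1 had an r of 0.951 with each other over the 6 arrays. Within the HKO livers their brightest probe sets did not take the same order. HKO 1 was the lowest for Nnt by 1416105_at and the highest for Wdfy1 by 1437358_at. The HKO livers spanned only 0.14 in 1437358_at, and by Wdfy1 probe set 1424749_at HKO 3 was the highest.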

How the data were processed

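The authors deposited 1 table of log2 intensities for 38208 probe sets on 6 arrays, with RMA and limma as the tools named per the submitters' processing notes. The sources used here do not give versions or settings. Because RMA forces all arrays onto 1 distribution, a change of every transcript alike is invisible. The number of arrays limits the precision.

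After 13 array controls were left out, the platform annotation named the probe sets (34325 with 1 symbol, 62 with several, 3808 unnamed here). Each probe set was fitted on its own. For lists and neighbours, the brightest probe set of a gene (by mean over the 6 arrays) stood for it. Gene order came from assembly GRCm38.p6, for 17874 genes matched by identifier. Differences (HKO minus control) were tested with limma 3.58.1 under R 4.3.3 (two-sided, Benjamini-Hochberg over all probe sets or genes, threshold 0.05). With 3 arrays a group, exact permutation reaches no p under 0.1. The labels call the samples of a genotype biological samples.

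The members and lists were chosen with earlier results of these data known. Named genes were all members, Tmbim1, the genes of each list past the threshold (otherwise those with the lowest p), and the genes with the highest and lowest r with Nnt and Wdfy1. Genes beside Ide were added after its values were seen. Same-numbered HKO and control arrays deviated from their group means with correlations of -0.076, 0.060 and 0.101, so the numbers were not taken as pairs. The fit was tested on simulated data (18029 genes, 200 changed), where 8 of 186 calls were false. No 2 arrays held identical values.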

Additional observations from a re-analysis of the deposited data

How the results depend on the processing

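The log2 differences of the 18 member probe sets were refitted under 10 settings, 180 values in all. The settings were quantile normalization, median centring, array weights, the replicate block and leaving out each array. All values moved by less than the spread between replicates, but most could not do otherwise, so stability is not read from this count. In groups this small, leaving out 1 array cannot move a mean past that spread. The replicate block leaves each difference unchanged, and median centring shifts all differences alike. For Ide 1435140_at, quantile normalization gave -0.63 and array weights -0.56. The number of member probe sets without overlap was 9 under quantile normalization and median centring and between 9 and 11 without 1 array. The calls across all genes were fewer without 1 array, with 78 to 161 genes and 87 to 197 probe sets in place of 182 and 268, and 344 genes passed at an adjusted p under 0.1. With the replicate block 125 genes and 221 probe sets passed. The replicate block left 0 calls among the NADPH and thiol genes, 0 among the insulin handling genes, 1 among the NLR genes and 1 between Tmbim1 and Wdfy1. It took Tmbim1 to an adjusted p of 0.0828. Quantile normalization left 1 call among the NLR genes and 1 between Tmbim1 and Wdfy1. Taking the median over the probe sets of each gene left 0 among the NADPH and thiol genes, 0 among the nucleotidases and 1 between Tmbim1 and Wdfy1, and eBayes with trend and robust options left 0 among the nucleotidases. Without 1 array, calls numbered 0 among the NADPH and thiol genes, 0 to 1 among the insulin handling genes and among the nucleotidases, 1 to 2 among the NLR genes and 1 between Tmbim1 and Wdfy1. Leaving out 1 array changed the sign of 4 member probe sets that lie near 0: Wdfy1 1453426_a_at (-0.033 to 0.149), Ide 1441860_x_at (-0.101 to 0.053), Cyfip2 1442167_at (-0.075 to 0.104) and Crb1 1441330_at (-0.095 to 0.109). Other named genes whose value changed sign were Prkcz (0.048) and Paip1 (0.047) by the median of probe sets, Dock2 (-0.050 to 0.257 without 1 array, lowest without control 2) and Mmrn1 (-0.035 to 0.186, lowest without HKO 2), none of which passed the test. The cause of these changes was not tested. Dim probe sets, among them all of Cyfip2, can show only compressed differences.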
